A study of Mus musculus with 9 samples.

Results

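The genes described here are 54 genes of DNA replication and cell division, given as a list of names by function, with earlier results of these data already known. All 54 were found among the 22136 genes of the deposited files, and all 54 passed the filter on low counts that left 13178 genes for testing. Of the list, 31 genes serve DNA replication and S phase and 23 serve mitosis and chromosome structure. Levels were read by bulk RNA sequencing of CD45-positive cells, that is immune cells carrying the pan-leukocyte protein CD45, sorted from subcutaneous tumours of YUMM 2.1, a mouse melanoma line that the study's title places among the β-catenin driven melanomas. The tumours grew in immunocompetent C57BL/6J mice, and dosing began at a tumour size of 20 to 50 mm3. The 3 groups of 3 libraries came from mice given control IgG (an isotype control), anti-B7-H3 (an antibody against the checkpoint ligand B7-H3, encoded by Cd276) or anti-PD1 (an antibody against the T cell checkpoint receptor PD-1). All groups carried the same tumour line, and every library is a mixture of the immune cells that the CD45 sort collects. The labels used here state neither the age or sex of the mice nor antibody doses, nor that replicates were separate mice, so p-values measure the spread between these libraries.

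Before a cell divides it copies its DNA. In G1 the origin recognition complex, Cdc6 and Cdt1 load the MCM helicase onto replication origins. At the start of S phase Cdc45, the GINS complex and Mcm10 turn the helicase on, replication protein A (RPA) coats the exposed single strands, and the polymerases copy both strands with the Pcna clamp. Mitosis then uses cyclin B with Cdk1, the Aurora and Polo kinases, the spindle checkpoint, motor proteins and the anaphase-promoting complex. In tumour immune infiltrates such genes are commonly read as a sign of dividing lymphocytes, since T cells divide after antigen recognition. In bulk RNA, fewer dividing cells and less RNA of these genes per cell cannot be told apart.

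Promoter sequences were read for the members because S-phase and mitotic genes are known to be driven through different short promoter elements. The RefSeq promoter table (GRCm38.p6) held 44 of the 54 members and 10096 tested genes, each as 300 bases from 250 before to 50 after a RefSeq start. For each gene the entry nearest to the start of its most counted transcript was taken, with no limit on the distance. The windows of Cdc6, Mcm7, E2f1 and Chek1 lie wholly inside the annotated gene, so they are not the stretch before its annotated start. The motifs were searched on both strands, and none of them contains another. The cell cycle homology region (CHR), TTTGAA, is the element bound by the DREAM and MuvB complexes. It was present in 13 of 18 mitotic promoters (72.2%), 2 of 26 replication promoters (7.69%) and 12.1% of all tested promoters. The CCAAT box, bound by NF-Y, was present in 88.9% of mitotic, 73.1% of replication and 38.4% of all tested promoters. The E2F element, searched as TTTCCCGC or TTTGGCGC, was present in 9 of 26 replication promoters (34.6%), 0 of 18 mitotic promoters and 3.05% of all tested promoters. The 9 were Cdc6, Cdt1, Mcm3, Mcm5, Mcm6, Mcm7, Pold1, Pola1 and E2f2. CHR and CCAAT occurred together in 72.2% of mitotic promoters and 4.87% of all tested promoters.

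The 200 bases before the start are shown for 5 members, all on the minus strand of GRCm38.p6, with matches to the motifs on either strand in capitals. Mcm6 (chr1:128359706-128359905) holds 2 E2F elements and 2 CCAAT boxes. Rpa1 (chr11:75348384-75348583) is the 1 member past the test in any comparison, and the only capitals in its stretch are a CCAAT box. Cdk1 (chr10:69352913-69353112), Cdc20 (chr4:118437344-118437543) and Top2a (chr11:99024190-99024389) hold CHR and CCAAT elements, as most mitotic members did.
Mcm6: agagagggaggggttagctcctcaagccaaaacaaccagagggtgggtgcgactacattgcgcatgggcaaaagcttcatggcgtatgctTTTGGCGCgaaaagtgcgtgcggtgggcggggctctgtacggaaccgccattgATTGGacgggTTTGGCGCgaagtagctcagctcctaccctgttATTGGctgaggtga
Rpa1: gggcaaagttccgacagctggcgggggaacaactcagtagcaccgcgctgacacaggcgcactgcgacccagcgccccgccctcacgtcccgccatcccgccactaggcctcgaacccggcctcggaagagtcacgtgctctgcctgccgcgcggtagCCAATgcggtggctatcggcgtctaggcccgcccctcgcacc
Cdk1: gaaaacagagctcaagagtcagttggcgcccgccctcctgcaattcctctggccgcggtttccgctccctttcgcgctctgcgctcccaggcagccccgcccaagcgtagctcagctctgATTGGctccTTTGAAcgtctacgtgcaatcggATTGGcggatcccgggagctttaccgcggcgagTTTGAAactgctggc
Cdc20: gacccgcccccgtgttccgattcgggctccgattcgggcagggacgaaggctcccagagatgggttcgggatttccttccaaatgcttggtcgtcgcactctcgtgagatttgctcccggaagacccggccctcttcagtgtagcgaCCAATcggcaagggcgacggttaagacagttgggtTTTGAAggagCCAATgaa
Top2a: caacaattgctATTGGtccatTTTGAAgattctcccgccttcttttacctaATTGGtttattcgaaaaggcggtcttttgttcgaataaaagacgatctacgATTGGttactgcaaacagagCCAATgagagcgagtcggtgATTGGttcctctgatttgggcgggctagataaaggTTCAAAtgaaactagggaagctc

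A match of letters is a description of the promoter and not evidence of binding, and no promoter assay was part of these data. Members with CHR elements include Ccnb2, Cdc20, Cdk1, Ube2c, Mki67, Top2a, Hmgb2, Plk1, Bub1b and Aurka. Ccnb1, Bub1 and Birc5 held no TTTGAA in the window.

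Library totals ran from 14487012 to 31533106 estimated counts, and levels are given as CPM, each gene's counts scaled to a common library size after scaling by TMM, edgeR's trimmed-mean normalisation. At this depth the member with the fewest reads in any library was Pole, with 5 counts in anti-PD1 3. Ptprc, which encodes CD45, lay between 1718 and 2913 CPM. The melanocyte gene Dct was at 0 counts in all 9 libraries. The 7 melanoma markers, with Dct among them, summed to between 0.376 and 14.1 CPM per library, and 3 of the 7 passed the filter. IgG control 2 stood apart on the first principal component (35.9% of variance) with 1896 tested genes at 0, and anti-PD1 3 on the second (18.5%) with 1248. The other 7 libraries had 822 or fewer such genes. Results that rest on these libraries are given with and without them.

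Levels between genes were compared in TPM, a transcript level per effective length of the coding sequence, scaled to a common total. By this measure the most abundant member was Hmgb2, at a mean of 776 TPM over 9 libraries. It is a chromatin protein that bends DNA and is not limited to dividing cells. Stmn1, which destabilises microtubules, followed at 199 TPM, Cenpa, the centromeric histone, at 138 TPM, and Pcna at 131 TPM. Within the 6 MCM helicase subunits from Mcm2 to Mcm7, which act as 1 ring, Mcm6 was the highest in all 9 libraries and held 31.2% of the family's TPM, against 12% to 15.0% for each of the other 5. Among the RPA subunits, Rpa3 was the highest in all 9 libraries, with 48.3% of the family's TPM. Rpa3 has 366 coding bases and the main Rpa1 transcript 1872. The effective length raises short coding sequences most, so ranks between genes of unlike length, such as Rpa3 or Cenpa (405 bases) against longer genes, depend on it. Ccnb2 exceeded Ccnb1 in all 9 libraries (66.5% of the pair's TPM), and Ccne1 exceeded Ccne2 in all 9 (71.3%). Rrm1 exceeded Rrm2 in 7 of 9.

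Few of the cell cycle genes passed the test in any comparison. Against IgG control, 0 of the 54 genes passed the test with anti-B7-H3, beside 0.85% of all tested genes, 0.827% higher and 0.0228% lower (edgeR quasi-likelihood test, Benjamini-Hochberg adjusted p under 0.05 over all tested genes). With anti-PD1, 1 of the 54 passed, Rpa1, which was lower, beside 1.74% of all tested genes, 1.72% higher and 0.0152% lower. Between anti-B7-H3 and anti-PD1, 0 of the 54 and 0.0% of all tested genes passed. At an unadjusted p under 0.05 the counts were 2 of 54 in each comparison, beside 8.81%, 10.9% and 3.23% of all tested genes, so the members' share of 3.7% was below the background in the comparisons with IgG control. DESeq2 and limma-voom also gave 0, 1 and 0 members past an adjusted p of 0.05. The comparisons with IgG control share their control libraries and are not independent of each other.

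The intervals say how much change the 3 libraries per group could have shown. With anti-B7-H3 the 95% interval of the log2 fold change lay wholly between -1 and 1, a bound of 2-fold either way, for 16 of 54 genes, with anti-PD1 for 15 and between the antibodies for 16. For the other genes a 2-fold change in at least one direction lay inside the interval. The median standard error was 0.41 on the log2 scale. The genes with the narrowest spread over all 9 libraries were Pcna (1.54-fold from the lowest to the highest library), Rpa2 (1.56-fold) and Rpa3 (1.68-fold). Within groups the median coefficient of variation of the 54 genes was 35.5% in IgG control, 39.5% in anti-B7-H3 and 26.0% in anti-PD1.

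**Figure D1:**
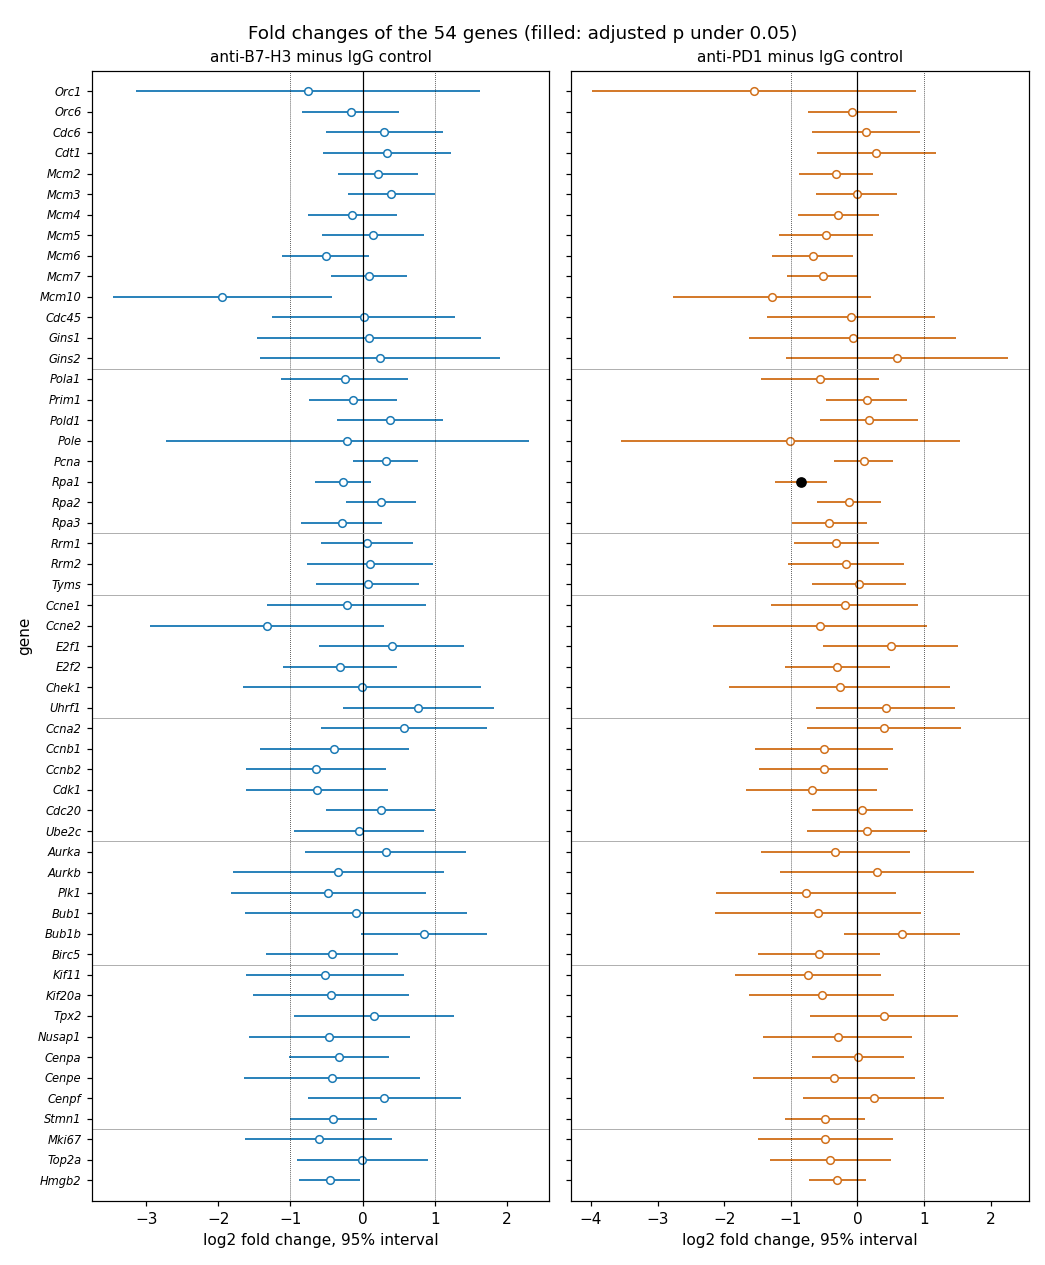
Log2 fold change of each of the 54 genes (points) with its 95% interval (lines) for anti-B7-H3 against IgG control (left) and anti-PD1 against IgG control (right), ordered by role, with dotted lines at -1 and 1. The 1 filled point, an adjusted p under 0.05, is Rpa1 with anti-PD1 at -0.85, and the widest intervals belong to Orc1 and Pole.

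Libraries of 1 group differed widely in these genes. IgG control 2 was the highest of the 9 libraries for 24 of the 54 genes (44.4%), where it was the highest for 19.7% of all tested genes. Of those 24, 15 were among the 23 mitotic genes. Anti-B7-H3 1 was the lowest library for 29 of the 54 (53.7%) and the highest for 0, where it was the lowest for 11.9% of all tested genes. Of those 29, 17 were mitotic and 12 were replication genes. Anti-B7-H3 2 and anti-B7-H3 3, which carry the same label, were the highest for 15 (27.8%) and 6 (11.1%) genes, beside 6.71% and 6.1% of all tested genes. Anti-PD1 3 was the lowest for 11 (20.4%), beside 14.8% of all tested genes. IgG control 2 was also the lowest for 5 of the 54 (9.26%), beside 30.9% of all tested genes.

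**Figure D2:**
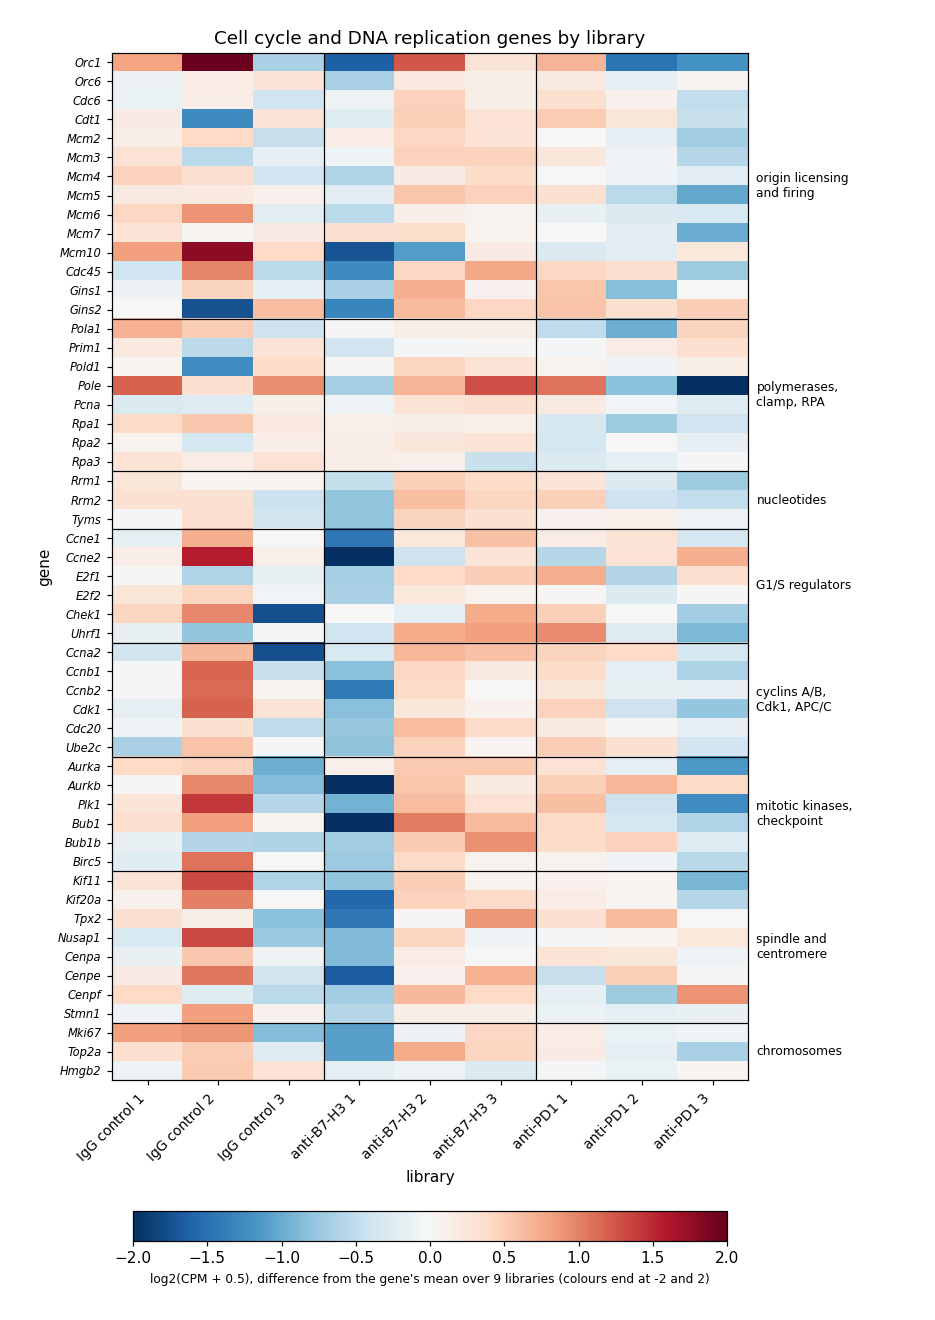
Level of each of the 54 genes (rows, by role) in each of the 9 libraries (columns) as log2(CPM + 0.5) minus the gene's mean over the 9 libraries, with red above and blue below that mean. The anti-B7-H3 1 column is blue for most rows (a median of -0.68 over the genes) beside redder anti-B7-H3 2 (0.42) and anti-B7-H3 3 (0.28), and IgG control 2 is the reddest column (0.47), most of all in the mitotic rows.

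The summed level of the 54 genes shows the same order. It was 3632, 4497 and 3173 CPM in IgG control 1 to 3, 2529, 3954 and 3775 CPM in anti-B7-H3 1 to 3, and 3483, 2974 and 2728 CPM in anti-PD1 1 to 3. The groups overlapped, with means of 3767 ± 672, 3419 ± 776 and 3062 ± 385 CPM (SD, n = 3 each). As a share of all counts on TMM-scaled sizes the list held 0.377%, 0.342% and 0.306%. The SD of the anti-B7-H3 group exceeded the distance between any 2 group means.

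By phase, the 31 replication genes summed to 2182, 2209 and 1817 CPM in IgG control, 1595, 2323 and 2265 CPM in anti-B7-H3, and 1983, 1611 and 1433 CPM in anti-PD1. The 23 mitotic and chromosome genes summed to 1450, 2288 and 1356 CPM, then 934, 1630 and 1510 CPM, then 1500, 1363 and 1295 CPM. The mitotic to replication ratio was 0.665, 1.036 and 0.746 in IgG control, 0.585, 0.702 and 0.667 in anti-B7-H3, and 0.757, 0.846 and 0.903 in anti-PD1. The ratios of the 3 anti-PD1 libraries lay above those of the 3 anti-B7-H3 libraries, and IgG control, from 0.665 to 1.036, overlapped both. Without the abundant Hmgb2 and Stmn1 the ratios were 0.23, 0.426 and 0.412 in anti-B7-H3 and 0.431, 0.466 and 0.429 in anti-PD1, with IgG control from 0.304 to 0.584. The separation of the antibodies then narrowed to 0.426 against 0.429, and on the TPM scale it was lost, with 0.365, 0.604 and 0.547 in anti-B7-H3 and 0.677, 0.694 and 0.593 in anti-PD1.

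**Figure D3:**
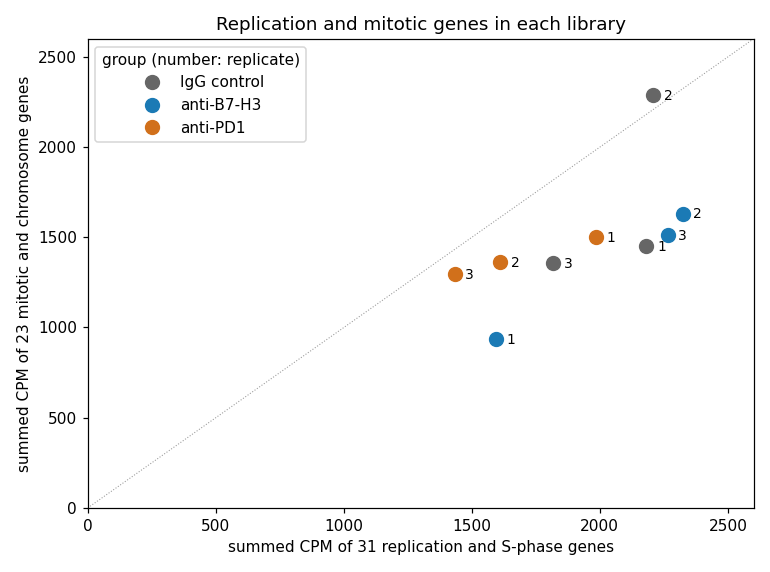
Summed level of the 31 replication and S-phase genes (x axis, CPM) against that of the 23 mitotic and chromosome genes (y axis, CPM) in each of the 9 libraries, numbered by replicate, with a dotted line of equal sums. IgG control 2 is the highest on the y axis (2288 CPM) and the single point above the line, and anti-B7-H3 1 is the lowest on it (934 CPM).

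Anti-B7-H3 against IgG control gave 23 positive and 31 negative differences among the 54 genes, where 52.1% of all tested genes were positive, with a median log2 fold change of -0.11 beside 0.02 over all tested genes. The replication genes had a median of 0.06 and the mitotic genes -0.39, with 17 of 23 negative. The replication median was 0.06 without IgG control 2, 0.28 without anti-B7-H3 1 and 0.20 without both. It was not taken without anti-B7-H3 2 or 3, so its sign is not shown to be stable. Without anti-B7-H3 3 the median over all 54 genes was -0.27, the lowest on leaving out 1 library. Without IgG control 2 the median was 0.15 over all 54 genes and 0.19 over the mitotic genes, with 16 of 23 positive. Without anti-B7-H3 1 it was 0.16 over all 54 genes and -0.02 over the mitotic genes. With both left out, a setting chosen after seeing the data, it was 0.38 over the 54 genes, with 44 positive, and 0.53 over the mitotic genes, with 21 of 23 positive, and 0 genes passed the test in each of these fits.

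Anti-PD1 against IgG control gave 17 positive and 37 negative differences, where 47.2% of all tested genes were positive, with a median of -0.30 beside -0.04 over all tested genes. The replication genes had a median of -0.19, with 22 of 31 negative, and the mitotic genes -0.35. Without IgG control 2 the medians were -0.04 over the 54 genes, -0.10 over the replication genes and 0.004 over the mitotic genes. Without IgG control 2 and anti-PD1 3 they were 0.05, -0.14 and 0.18. Anti-B7-H3 against anti-PD1 gave 37 positive and 17 negative differences, where 53.8% of all tested genes were positive, with a median of 0.14 beside 0.04. Without anti-B7-H3 1 that median was 0.37, with 48 of 54 positive, and without anti-PD1 3 it was -0.02, with 25 of 54 positive.

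Groups that did not overlap were few. With anti-B7-H3, 1 of the 54 genes (Rpa2) lay wholly above IgG control and 4 (Mcm10, Rpa1, Rpa3 and Hmgb2) wholly below, beside 9.96% and 5.49% of all tested genes. With anti-PD1, 0 lay above and 5 (Mcm7, Mcm10, Rpa1, Rpa3 and Stmn1) below, beside 9.99% and 6.52%. Against anti-PD1, anti-B7-H3 lay wholly above for 4 (Mcm2, Mcm7, Rpa1 and Rpa2) and below for 0, beside 7.13% and 6.4%.

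Among the 14 genes that license and fire origins, 0 passed the test in any comparison. Their median log2 fold changes were 0.09 after anti-B7-H3 and -0.19 after anti-PD1 against IgG control, and 0.16 between the antibodies. Mcm2, a helicase subunit, was at 151, 183 and 101 CPM in IgG control, 153, 184 and 168 CPM in anti-B7-H3, and 139, 123 and 85.5 CPM in anti-PD1. Every anti-B7-H3 library was above every anti-PD1 library, and IgG control overlapped both. The log2 difference between the antibodies was 0.54 ± 0.25 (SE, n = 3 each) with an edgeR adjusted p of 1.0.

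Mcm7, whose gene overlaps Cops6 and Ap4m1, showed a like order. It was at 146, 126 and 135 CPM in IgG control, 150.3, 154 and 127 CPM in anti-B7-H3, and 119, 104 and 60.6 CPM in anti-PD1. The anti-PD1 libraries lay below all others, yet the log2 difference from IgG control was -0.52 ± 0.24 with an edgeR adjusted p of 0.473, and anti-B7-H3 exceeded anti-PD1 by 0.60 ± 0.24 with an edgeR adjusted p of 1.0. Mcm5 was at 114, 115 and 107 CPM in IgG control, 86.2, 148 and 138 CPM in anti-B7-H3, and 125, 68.6 and 49.2 CPM in anti-PD1. Its IgG control libraries were tight, at a coefficient of variation of 4.02%, while each antibody group spread to both sides of them. The log2 fold changes were 0.15 ± 0.32 after anti-B7-H3 and -0.47 ± 0.32 after anti-PD1 (edgeR adjusted p of 0.954 and 0.675).

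Mcm6, the most abundant helicase subunit, was at 392, 548 and 252 CPM in IgG control, 204, 320.4 and 310.2 CPM in anti-B7-H3, and 267, 242 and 239 CPM in anti-PD1. It had the next smallest p after Rpa1 with anti-PD1, at a log2 fold change of -0.67 ± 0.28 and an edgeR adjusted p of 0.403. IgG control 3 lay inside the anti-PD1 range, so the groups overlapped, and the mean of IgG control rested on its replicates 1 and 2. Mcm3 and Mcm4 had log2 fold changes of 0.40 and -0.14 with anti-B7-H3 and of -0.01 and -0.29 with anti-PD1.

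Mcm10, which helps to start the fork, had the most negative fitted value with anti-B7-H3. It was at 9.83, 19.8 and 7.26 CPM in IgG control, 1.26, 2.19 and 6.04 CPM in anti-B7-H3, and 4.29, 4.51 and 6.27 CPM in anti-PD1. Both antibody groups lay wholly below IgG control, though anti-B7-H3 3 and anti-PD1 3 were close to its lowest library. The log2 fold changes were -1.95 ± 0.69 and -1.29 ± 0.68, and neither passed (edgeR adjusted p of 0.408 and 0.535). Its lowest library held 17 counts. Orc1, the ATPase of the origin recognition complex, ranged from 0.668 CPM in anti-B7-H3 1 to 13.7 CPM in IgG control 2. Gins2 ranged from 1.30 CPM in IgG control 2 to 8.79 CPM in anti-B7-H3 2. Orc6, Cdc6, Cdt1, Cdc45 and Gins1 had log2 fold changes between -0.17 and 0.34 in both comparisons with IgG control.

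Among the 8 genes of the polymerases, the clamp and RPA, Rpa1 alone passed the test. Rpa1 encodes the large DNA-binding subunit of replication protein A, which coats single-stranded DNA in replication and repair, and lies at chr11:75298166-75348324 on GRCm38. It was at 176, 197 and 156 CPM in IgG control, 146.2, 146.5 and 146.1 CPM in anti-B7-H3, and 108, 82.7 and 103 CPM in anti-PD1. The 3 groups did not overlap, with IgG control highest, anti-B7-H3 between and anti-PD1 lowest. Means were 176 ± 20.5, 146 ± 0.235 and 97.9 ± 13.5 CPM (SD, n = 3 each). Rpa1 fell with anti-PD1 by 0.85 ± 0.18 on the log2 scale (95% interval -1.24 to -0.46, edgeR adjusted p of 0.0389). With anti-B7-H3 the log2 fold change was -0.27 ± 0.18 (edgeR adjusted p of 0.759), and anti-B7-H3 against anti-PD1 gave 0.58 ± 0.18 (edgeR adjusted p of 1.0).

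The Rpa1 call sat close to the threshold. Leaving out 1 library at a time, it stayed past the test without IgG control 3 (edgeR adjusted p of 0.038) and missed it without each of the other 8 libraries, with adjusted p from 0.0578 without anti-B7-H3 1 to 0.21 without anti-PD1 2. Its log2 fold change stayed between -0.93 and -0.74 in those fits. Transcript Rpa1-202 held 90.6% to 98.1% of the gene's counts in every library. No other gene among the 22136 of the deposited files overlaps Rpa1.

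The other RPA subunits gave other orders of the groups. Rpa2 was at 44.7, 33.2 and 46.3 CPM in IgG control, 46.4, 49.8 and 51.6 CPM in anti-B7-H3, and 33.2, 42.8 and 37.9 CPM in anti-PD1, so anti-B7-H3 was the highest group. Rpa3 was at 32.6, 30.02 and 33.2 CPM, then 29.7, 28.8 and 19.7 CPM, then 22.1, 23.5 and 26.2 CPM, so IgG control was the highest group. Their log2 fold changes with anti-PD1 were -0.12 ± 0.22 and -0.42 ± 0.26 (edgeR adjusted p of 0.898 and 0.62). The difference of these changes from that of Rpa1 was not tested.

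Pcna, the sliding clamp, was at 125, 127 and 166 CPM in IgG control, 144, 185 and 193 CPM in anti-B7-H3, and 172, 146 and 129 CPM in anti-PD1. All groups overlapped. The log2 fold changes were 0.32 ± 0.20 and 0.10 ± 0.20 against IgG control (edgeR adjusted p of 0.744 and 0.917), and the upper ends of their 95% intervals, 0.76 and 0.54, were below a 2-fold rise. Pole, the catalytic subunit of leading-strand polymerase epsilon, ranged from 0.209 CPM in anti-PD1 3 to 26.8 CPM in anti-B7-H3 3, and its 95% interval with anti-PD1 ran from -3.55 to 1.53. Pola1, Prim1 and Pold1, of the primase and lagging-strand polymerases, had log2 fold changes between -0.56 and 0.38.

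The 3 genes of nucleotide supply and the 6 G1/S regulators held 0 calls. Rrm2, the regulated subunit of ribonucleotide reductase, was at 54.6, 55.1 and 33.0 CPM in IgG control, 25.5, 67.8 and 60.2 CPM in anti-B7-H3, and 62.0, 33.2 and 31.2 CPM in anti-PD1. In each antibody group 1 library differed about 2-fold from the other libraries, low for anti-B7-H3 1 and high for anti-PD1 1. E2f1, a transcription factor of S-phase entry, was at 13.0, 8.29 and 11.47 CPM, then 7.94, 17.0 and 18.3 CPM, then 21.6, 8.32 and 16.4 CPM, and the groups overlapped. Their log2 fold changes were 0.11 ± 0.40 and 0.40 ± 0.46 with anti-B7-H3 and -0.17 ± 0.40 and 0.50 ± 0.46 with anti-PD1, with edgeR adjusted p from 0.772 to 0.976. Rrm1 and Tyms, thymidylate synthase, had log2 fold changes of 0.06 and 0.07 with anti-B7-H3 and of -0.32 and 0.03 with anti-PD1. Ccne2, one of the E cyclins, had -1.32 ± 0.74 and Uhrf1, which guides DNA methylation to new strands, 0.77 ± 0.48 with anti-B7-H3 (edgeR adjusted p of 0.692 and 0.73). Ccne1, E2f2 and Chek1, the replication checkpoint kinase, lay between -0.31 and -0.01 in both comparisons with IgG control.

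**Figure D4:**
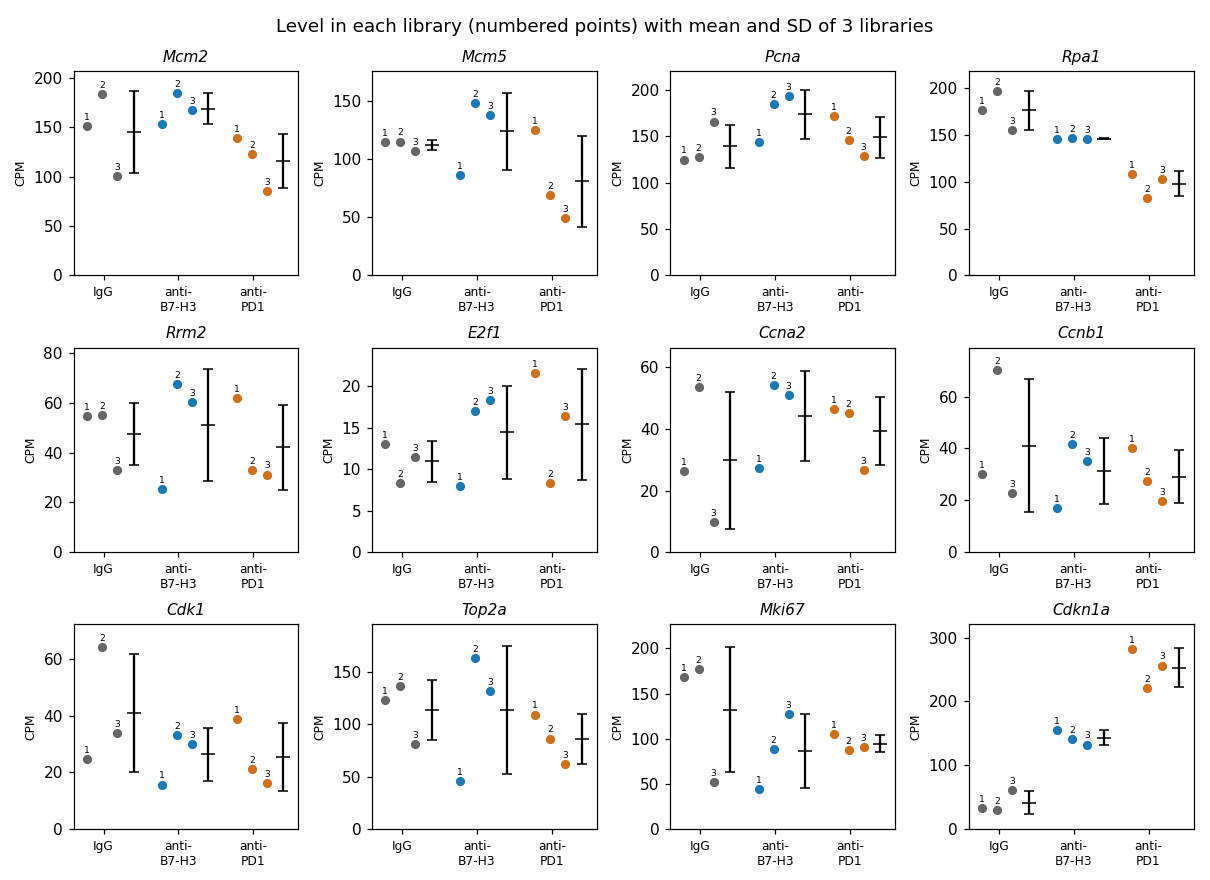
Level (CPM) of 11 of the 54 genes and of the inhibitor Cdkn1a in each library, as points numbered by replicate, with the mean and SD of the 3 libraries of each group to their right. The groups are apart for Rpa1 and Cdkn1a, in opposite orders, while for Ccnb1, Cdk1, Rrm2 and Top2a the libraries of 1 group cover most of the range.

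Mitotic entry genes, 6 in number, held 0 calls. Ccna2, the cyclin of S phase and G2, was at 26.3, 53.7 and 9.70 CPM in IgG control, 27.5, 54.3 and 51.2 CPM in anti-B7-H3, and 46.4, 45.1 and 26.6 CPM in anti-PD1. Ccnb1, the main mitotic cyclin, was at 30.1, 70.3 and 22.7 CPM, then 17.1, 41.6 and 35.1 CPM, then 40.01, 27.3 and 19.8 CPM. Cdk1, its kinase, was at 24.8, 64.4 and 33.9 CPM, then 15.7, 33.3 and 30.1 CPM, then 39.0, 21.2 and 16.4 CPM. In all 3 genes IgG control 2 was the highest of its group, anti-B7-H3 1 the lowest of its group and anti-PD1 3 the lowest of its group. The log2 fold changes with anti-B7-H3 were 0.57 ± 0.52, -0.39 ± 0.47 and -0.64 ± 0.45, with edgeR adjusted p of 0.86, 0.902 and 0.78. With anti-PD1 they were 0.40 ± 0.52, -0.50 ± 0.47 and -0.69 ± 0.45, with edgeR adjusted p of 0.847, 0.777 and 0.656. Ccnb2 was at 124 CPM in IgG control 2 and at 20.9 CPM in anti-B7-H3 1, with the other 7 libraries from 50.3 to 74.0 CPM. Cdc20 and Ube2c, which serve the anaphase-promoting complex, had log2 fold changes between -0.05 and 0.25 in both comparisons with IgG control.

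The 6 genes of mitotic kinases and the spindle checkpoint held 0 calls. Bub1b, which encodes the checkpoint protein BubR1, had the highest fitted value of the 54 genes in both comparisons with IgG control. It was at 24.0, 17.7 and 17.3 CPM in IgG control, 16.3, 38.7 and 51.0 CPM in anti-B7-H3, and 34.5, 37.0 and 22.6 CPM in anti-PD1. Anti-B7-H3 1 was below all IgG control libraries and the other anti-B7-H3 libraries above them, and anti-PD1 3 lay inside the IgG control range. The log2 fold changes were 0.85 ± 0.40 and 0.67 ± 0.39 (edgeR adjusted p of 0.583 and 0.597). Plk1, the Polo kinase, ranged from 7.81 CPM in anti-PD1 3 to 51.8 CPM in IgG control 2. Bub1 was at 1.78 CPM in anti-B7-H3 1 and at 23.2 and 17.4 CPM in its fellow replicates, and Aurkb, the kinase of the chromosomal passenger complex, at 2.82 CPM there and at 24.6 and 18.9 CPM in those. Aurka and Birc5 (survivin) had log2 fold changes of 0.32 and -0.43 with anti-B7-H3 and of -0.33 and -0.57 with anti-PD1.

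The 8 genes of spindle motors, spindle assembly and the centromere held 0 calls, with medians of -0.41 and -0.33 against IgG control and -0.003 between the antibodies. Stmn1 was at 93.2, 177 and 105 CPM in IgG control, 66.9, 109 and 108 CPM in anti-B7-H3, and 90.3, 87.5 and 89.5 CPM in anti-PD1. The anti-PD1 libraries were tight and lay just below the lowest IgG control library, with a log2 fold change of -0.49 ± 0.27 (edgeR adjusted p of 0.566). Nusap1, a microtubule bundler, was at 85.4 CPM in IgG control 2 and from 18.03 to 45.8 CPM in the other 8 libraries, and Kif11, the bipolar spindle motor, at 74.5 CPM there and from 15.4 to 41.9 CPM elsewhere. Kif20a, Tpx2, Cenpa, Cenpe and Cenpf had log2 fold changes between -0.54 and 0.39 against IgG control. Cenpf is uncertain, since 45.3% of its counts lay on transcripts longer than 50% of its longest one, the lowest share of the 54 genes.

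The proliferation marker Mki67, which encodes Ki-67, was at 168, 177 and 52.2 CPM in IgG control, 44.5, 88.1 and 127 CPM in anti-B7-H3, and 106, 87.1 and 91.0 CPM in anti-PD1. IgG control 3 lay with the lower antibody libraries, and the groups overlapped. Its log2 fold changes were -0.61 ± 0.46 and -0.49 ± 0.46 (edgeR adjusted p of 0.806 and 0.777). Top2a, the topoisomerase that untangles sister chromatids, was at 123, 137 and 81.3 CPM, then 45.6, 164 and 132 CPM, then 109, 86.5 and 62.1 CPM. Anti-B7-H3 held both its lowest and its highest library, and the log2 fold changes were -0.002 ± 0.41 and -0.40 ± 0.41 (edgeR adjusted p of 0.999 and 0.791). Hmgb2 was at 535, 822 and 699 CPM in IgG control, 499.8, 533 and 468 CPM in anti-B7-H3, and 555, 524 and 590.3 CPM in anti-PD1. Every anti-B7-H3 library was below every IgG control library, with a log2 fold change of -0.45 ± 0.19 (edgeR adjusted p of 0.53).

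Beyond the 54 genes, 157 other cell cycle genes in 4 lists were examined, of which 155 were tested. With anti-B7-H3 1 of the 155 passed, with anti-PD1 3, all higher, and between the antibodies 0. At an unadjusted p under 0.05 the counts were 15, 16 and 5, beside 8.81%, 10.9% and 3.23% of all tested genes. DESeq2 gave 5, 6 and 0 at an adjusted p under 0.05, and its share over all genes is not given here. Over the 155 genes together, the edgeR counts are near the background of 0.85% and 1.74% of all tested genes. All 3 genes belong to the 21 tested inhibitors and quiescence genes, so the pooled share does not describe that list. Of these 21, 7 after anti-B7-H3 and 9 after anti-PD1 had an unadjusted p under 0.05 against IgG control. Wholly above IgG control lay 6 and 7 of them, beside 9.96% and 9.99% of all tested genes, and 0 lay below. Their median log2 fold changes were -0.085 and 0.156, with 8 and 12 of 21 positive. The list was chosen with earlier results known and was not tested as a list. Cdkn1a, which encodes the inhibitor of cyclin-dependent kinases p21 and lies at chr17:29090976-29100727 on GRCm38, was at 32.3, 29.8 and 61.6 CPM in IgG control, 155, 140.4 and 132 CPM in anti-B7-H3, and 282, 221 and 256 CPM in anti-PD1. The 3 groups did not overlap, and their order was the reverse of that of Rpa1. Cdkn1a rose by 1.79 ± 0.27 on the log2 scale with anti-B7-H3 and by 2.62 ± 0.28 with anti-PD1 (edgeR adjusted p of 0.0118 and 0.00119), and the antibodies differed by -0.83 ± 0.27 (edgeR adjusted p of 1.0). Without IgG control 2 and anti-B7-H3 1 the anti-B7-H3 call was lost, at 1.54 with an edgeR adjusted p of 0.0593.

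Gadd45b and Gadd45a encode stress-induced proteins that restrain the cell cycle. Gadd45b was at 54.4, 74.0 and 77.5 CPM in IgG control, 98.7, 125 and 143 CPM in anti-B7-H3, and 222, 207 and 181 CPM in anti-PD1. Gadd45a was at 6.02, 6.99 and 6.64 CPM, then 13.7, 11.9 and 14.1 CPM, then 18.4, 17.4 and 27.0 CPM. In both genes every anti-PD1 library exceeded every anti-B7-H3 library, and these exceeded every IgG control library. With anti-PD1 they rose by 1.57 ± 0.21 and 1.67 ± 0.34 on the log2 scale (edgeR adjusted p of 0.00418 and 0.0315). With anti-B7-H3 the log2 fold changes were 0.83 ± 0.21 and 1.01 ± 0.33 (edgeR adjusted p of 0.158 and 0.346). When each library was left out in turn, the Gadd45a call held without IgG control 2 or anti-B7-H3 1 and was lost without each of the other 7, with edgeR adjusted p from 0.0389 to 0.119. It was also lost in 6 of the 12 other settings.

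In the other lists 0 genes passed in any comparison. The 47 replication and repair genes had a median of -0.11 after anti-B7-H3 and of -0.37 after anti-PD1. After anti-PD1 38 of 47 were negative, where 47.2% of all tested genes were positive. Of the 47, 10 lay wholly below IgG control and 1 above, beside 6.52% and 9.99% of all tested genes. Their sums were 1924, 2140 and 1847 CPM in IgG control and 1617, 1538 and 1488 CPM in anti-PD1. Medians without IgG control 2 or anti-PD1 3 were not taken for this list, and the list was not tested. Those with the smallest p were Pole2, a polymerase epsilon subunit, at 23.8, 31.9 and 16.3 CPM in IgG control and 12.3, 13.8 and 11.1 CPM in anti-PD1 (log2 fold change -0.95 ± 0.32, edgeR adjusted p of 0.249), and Slbp, which binds histone mRNA stem-loops (-0.54 ± 0.20, edgeR adjusted p of 0.322). The 67 mitosis and cytokinesis genes had medians of -0.20 and -0.17. Of these Fbxo5, an inhibitor of the anaphase-promoting complex, and Ckap5, a microtubule polymerase, had log2 fold changes of -0.78 ± 0.28 and -0.96 ± 0.37 with anti-B7-H3 (edgeR adjusted p of 0.424 and 0.459). The 20 G1 cyclins, kinases and cell cycle transcription factors had medians of 0.20 and 0.09. Myc, a driver of growth and cell cycle entry, was at 179, 136 and 171 CPM in IgG control and 242, 255 and 308 CPM in anti-B7-H3 (0.73 ± 0.18, edgeR adjusted p of 0.149), and Ccnd1, a G1 cyclin, at 1.15, 0 and 2.70 CPM in IgG control and 7.38, 12.2 and 4.80 CPM in anti-PD1 (2.65 ± 1.23, edgeR adjusted p of 0.472).

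Markers of immune cell types moved between the same groups, and their part in the results above was not tested. The 9 macrophage markers summed to 121 to 299.5 CPM in IgG control, 1673 to 2612 CPM in anti-B7-H3 and 1202 to 1803 CPM in anti-PD1, with 7 of 9 passing the test, higher, in each comparison with IgG control. Csf1r was at 0 in IgG control 2. The 6 neutrophil markers summed to 79.4 to 105, 271 to 483 and 647 to 929 CPM, 3 of 6 passing after anti-B7-H3 and 4 of 6 after anti-PD1. The 10 T cell markers summed to 5307, 6448 and 8276 CPM in IgG control, 7094, 4862 and 4396 CPM in anti-B7-H3, and 4544, 4569 and 5490 CPM in anti-PD1, with 0 of 10 passing and medians of -0.27 and -0.42. None of the T cell markers was at 0 in any library. Anti-B7-H3 1, the library lowest for most of the 54 genes, had the highest summed T cell (7094 CPM), macrophage (2612 CPM) and B cell (491 CPM) markers of its group. It had the lowest summed NK cell (1612 CPM) and plasma cell (475 CPM) markers of its group, and its neutrophil markers (363 CPM) lay between those of its fellow replicates. B cell markers summed to 29.3 to 95.2 CPM in IgG control and 53.97 to 159 CPM in anti-PD1, with 0 of 7 passing. Plasma cell markers summed to 154 to 489, 475 to 682 and 1043 to 1392 CPM in the 3 groups. Against IgG control 0 of 6 passed after anti-B7-H3 and 2 of 6, higher, after anti-PD1.

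The library kit does not mark strand. Of the 54 genes, 11 overlap another of the 22136 genes of the deposited files by their whole spans, introns included. These are Orc6, Cdt1, Mcm7, Cdc45, Gins2, Ccne2, Ccna2, Cdc20, Ube2c, Kif20a and Nusap1. Whether their coding sequences overlap was not checked, and reads of any overlapping coding parts cannot be assigned with certainty. Annotated genes outside the deposited files were not searched. For 45 of the 54 genes over 90% of counts fell on 1 transcript, and for 50 the most counted transcript was the longest.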

How the data were processed

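RNA from CD45-positive tumour cells was amplified with SMART-Seq v4, depleted of ribosomal RNA and made into Nextera XT libraries, per the labels' protocols. The submitters' processing notes name GRCm38 and FastQC 0.11.8, and the quantifier is not given in the sources used here. Per the file headers, the authors deposited an estimated count, not normalised, and a TPM value for each of 58083 transcripts in each of 9 libraries. Of the deposited lengths 87.3% are multiples of 3, so TPM rests on coding sequences, by their effective lengths.

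Estimated counts were summed by gene with GENCODE M21 (57409 transcripts matched, 674 did not) and rounded. All 9 libraries entered 1 fit in edgeR 4.0.16 (R 4.3.3) with TMM factors, filterByExpr, group means and robust quasi-likelihood dispersions. P-values were adjusted by Benjamini and Hochberg over 13178 genes at 0.05. Values after ± are SDs for CPM and standard errors for log2 fold changes, with 3 libraries per group. An exact permutation test of 3 against 3 libraries cannot go below 0.1 and was not used. The fit was tested on simulated counts.

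The 54 members, the other gene lists and the marker lists were chosen with earlier results of these data known, so no test of a list was made and no p was adjusted over a list alone. Values in all libraries are given for Mki67, Top2a, Pcna, Mcm2, Mcm5, Cdk1, Ccnb1, Ccna2, Rrm2 and E2f1 by rule, for members past the test or, where none passed, the 3 with the smallest p. From each other list the genes past the test, or the 2 with the smallest p, were named. The non-overlapping members, Mcm6 and single extreme members were named after their values were seen. In each comparison 20 other settings were fixed and 1 was added after seeing the data, with DESeq2 1.42.0 and limma 3.58.1 among them. The reads carry no molecular identifiers, so counts include PCR copies.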

Additional observations from a re-analysis of the deposited data

How the results depend on the processing

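The members past the test stayed at 0 for anti-B7-H3 against IgG control and for anti-B7-H3 against anti-PD1 in all 21 other settings. For anti-PD1 against IgG control the count was 0 with no filter, with length-scaled TPM counts, with only the 6 libraries compared, with the replicate block, and with either pair of libraries left out together (IgG control 2 with anti-PD1 3, or IgG control 2 with anti-B7-H3 1), and it ranged from 0 to 1 leaving out 1 library at a time. The cause was not tested, except that leaving out libraries leaves fewer samples. The Rpa1 adjusted p ranged from 0.00069 (DESeq2) to 0.149 over the settings other than leave-one-out, and with the replicate number as a block it was 0.134. Same-numbered libraries had correlations of their deviations from -0.12 to 0.16, not every library correlated best with its own number, and the numbers were not taken to pair the samples. The block lowered the calls over all genes to 64, 127 and 0, with the Cdkn1a calls kept and the Gadd45a call with anti-PD1 lost (0.111). That call was also lost with limma-voom (0.13), no filter (0.0572), length-scaled TPM counts (0.12), only the 6 libraries compared (0.096) and IgG control 2 and anti-PD1 3 left out together (0.0853). The Cdkn1a call with anti-B7-H3 was also lost with only the 6 libraries compared (edgeR adjusted p of 0.0831). DESeq2 gave 5 calls with anti-B7-H3 among the other cell cycle genes, with Gadd45b and Gadd45a among them (adjusted p of 0.017 and 0.0238), and 6 with anti-PD1.

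The median log2 fold change of the members with anti-B7-H3 against IgG control moved to 0.38 with IgG control 2 and anti-B7-H3 1 left out together, and leaving out 1 library at a time gave -0.27 to 0.16. For anti-PD1 against IgG control the leave-one-out range was -0.41 to -0.04 and for anti-B7-H3 against anti-PD1 it was -0.10 to 0.37. Of the 54 members 35, 32 and 31 changed sign in at least 1 setting in the 3 comparisons, none of them a called value. The ratio of summed levels was 0.908 for anti-B7-H3 to IgG control (0.766 in TPM, 0.851 in CPM without TMM scaling), 0.813 for anti-PD1 to IgG control (0.734, 0.748) and 1.117 for anti-B7-H3 to anti-PD1 (1.043, 1.138). With 3 libraries per group, a 2-fold change in at least one direction lay inside the interval for most members.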

Other observations

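Mybl2, a cell cycle transcription factor outside the 54 genes, was chosen after its values were seen. Summed over its transcripts it was at 417 to 860.4 CPM in 8 libraries and at 3515 CPM in anti-B7-H3 1, the library lowest for 29 of the 54 genes. Nearly all of those counts lay on Mybl2-205, a transcript of 789 bases, at 3512 CPM in that library. The full-length Mybl2-201, of 2115 bases, was at 2.30 CPM (31 counts) there, at 18.3 CPM (542 counts) in anti-B7-H3 2 and at 0.125 CPM (3 counts) in anti-PD1 3. Within its group anti-B7-H3 1 was thus the highest library in the sum over transcripts computed here and the lowest in the longer transcript.

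Erythroid precursor markers, 8 in number, summed to 148, 70.6 and 457 CPM in IgG control, 25.7, 36.1 and 46.3 CPM in anti-B7-H3, and 36.7, 62.8 and 53.3 CPM in anti-PD1, with 0 of 6 tested markers passing the test. The 6 NK cell markers summed to 1328, 375 and 1247 CPM in IgG control, 1612, 2105 and 1951 CPM in anti-B7-H3, and 1728, 1528 and 1171 CPM in anti-PD1, so IgG control 2 was the lowest of the 9 libraries for this list and the highest for most of the mitotic genes.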
